A study of Homo sapiens with 12 samples.

Results

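The endoplasmic reticulum (ER) chaperones and the genes of the integrated stress response were followed in 2 human cancer cell lines after knockdown of KDM3A, a histone demethylase. The 39 listed genes fall into 5 branches: 14 folding factors of the ER, 9 genes of ER-associated degradation, 4 genes of stress sensing (3 sensors and the transcription factor XBP1), 6 transcription factors and regulators of the integrated stress response, and 6 targets of its factor ATF4. They were listed by name and not by a cut on a measured value, but with earlier results of these data known. A gene was read from its brightest probe set over the 12 arrays, among those annotated to no other gene. Such a probe set was found for 38 of the 39, and all 38 passed the filter on low signal, so that they stand among 14061 genes tested. SYVN1, the ubiquitin ligase of ER-associated degradation, has no value because its probe set is annotated to 2 genes.

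A549 is a lung adenocarcinoma line and was grown in RPMI1640 medium, and SW780 is a bladder carcinoma line and was grown in Leibovitz L-15 medium. Cells of each line received 100 nM of an siRNA duplex by lipid transfection for 24 h: siEGFP or siFFluc, which are controls named for reporter genes, or siKDM3A. Each of the 6 groups had 2 Affymetrix U133 Plus 2.0 arrays, so each line had 4 control arrays and 2 siKDM3A arrays. No untransfected group and no agent that provokes ER stress was among these arrays. The labels do not say whether the 2 replicates of a group were separate cultures, and the p-values thus rest on a spread between arrays that could be technical only. Each line is 1 cell line in 1 medium, and line and medium cannot be told apart.

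Proteins that enter the secretory pathway fold in the ER with the help of chaperones, disulfide isomerases and lectins, and those that fail are moved to the cytosol and degraded. When unfolded proteins build up, the membrane sensors ATF6, IRE1 (gene ERN1) and PERK (gene EIF2AK3) respond: ATF6 is cleaved to a transcription factor, IRE1 splices the XBP1 message, and PERK phosphorylates the initiation factor eIF2, which slows translation in general while that of ATF4 goes up. Kinases that sense amino acid lack, double-stranded RNA or haem lack act on the same factor, and the shared output is the integrated stress response, with ATF4, CHOP (gene DDIT3) and enzymes of amino acid supply among its parts. Arrays of this kind measure the total message of a gene: they do not show XBP1 splicing, ATF6 cleavage or eIF2 phosphorylation.

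Promoter sequence was looked at first, since these genes are known to share DNA elements that ATF6, XBP1 and ATF4 bind. RefSeq windows of 300 bases (250 before and 50 after the annotated start, assembly GRCh38.p14) were found for 36 of the 39 genes, and both strands were searched. The ER stress response element (ERSE), spelled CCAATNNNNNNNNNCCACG with 9 bases of any kind, was in a window of 7 of the 36 genes (19.4%): HSPA5, HSP90B1, CALR, CANX, PDIA6, CRELD2 and XBP1. Among all 27305 genes with a window, 25 (0.0916%) held it. ERSE-II, spelled ATTGG, 1 base of any kind and CCACG, was in HYOU1, HERPUD1 and SDF2L1, against 19 of 27305 genes (0.0696%). The element UPRE, spelled TGACGTGG, was in HYOU1 alone among the listed genes, where it shares bases with an ERSE-II, against 0.927% of all genes. The composite element that ATF4 can bind (CARE), spelled TGATGNAA, was in ASNS, ATF3, CEBPG, CHAC1 and HERPUD1, 13.9% of the 36, against 4.46% of all genes. CCACG, the core of both ERSE forms, is common: 66.7% of the 36 genes and 42.1% of all genes had it. A match is a description of letters and not a site shown to be bound.

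Windows of 5 genes are printed because they hold whole elements and their messages did not move alike under siKDM3A. They are the windows of HSPA5 at chr9:125241294-125241593 (minus strand), HSP90B1 at chr12:103930160-103930459 (plus strand), XBP1 at chr22:28800520-28800819 (minus strand), HYOU1 at chr11:119057156-119057455 (minus strand) and HERPUD1 at chr16:56931892-56932191 (plus strand), in GRCh38.p14, each read 5′ to 3′ on the gene's strand. Capitals mark the ERSE in HSPA5 and XBP1, an ERSE on each strand in HSP90B1, the UPRE with its overlapping ERSE-II and then a further ERSE-II in HYOU1, and the CARE and then the ERSE-II in HERPUD1.
HSPA5: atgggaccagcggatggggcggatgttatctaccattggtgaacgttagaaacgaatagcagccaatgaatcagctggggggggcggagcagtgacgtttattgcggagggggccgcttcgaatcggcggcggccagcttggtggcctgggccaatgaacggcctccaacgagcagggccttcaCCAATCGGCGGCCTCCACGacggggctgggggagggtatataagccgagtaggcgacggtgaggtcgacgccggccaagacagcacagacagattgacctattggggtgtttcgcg
HSP90B1: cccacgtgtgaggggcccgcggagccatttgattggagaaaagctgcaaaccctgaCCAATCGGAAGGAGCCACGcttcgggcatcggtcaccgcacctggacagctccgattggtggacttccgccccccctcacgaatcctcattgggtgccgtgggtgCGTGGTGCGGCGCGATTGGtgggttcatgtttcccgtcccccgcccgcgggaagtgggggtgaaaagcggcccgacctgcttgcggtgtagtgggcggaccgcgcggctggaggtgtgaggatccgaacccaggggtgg
XBP1: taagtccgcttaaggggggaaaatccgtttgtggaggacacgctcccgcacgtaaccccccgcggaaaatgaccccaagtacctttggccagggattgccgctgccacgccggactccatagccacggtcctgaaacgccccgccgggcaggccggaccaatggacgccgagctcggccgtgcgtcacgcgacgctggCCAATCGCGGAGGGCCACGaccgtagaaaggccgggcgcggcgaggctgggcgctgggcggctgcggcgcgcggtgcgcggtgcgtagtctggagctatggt
HYOU1: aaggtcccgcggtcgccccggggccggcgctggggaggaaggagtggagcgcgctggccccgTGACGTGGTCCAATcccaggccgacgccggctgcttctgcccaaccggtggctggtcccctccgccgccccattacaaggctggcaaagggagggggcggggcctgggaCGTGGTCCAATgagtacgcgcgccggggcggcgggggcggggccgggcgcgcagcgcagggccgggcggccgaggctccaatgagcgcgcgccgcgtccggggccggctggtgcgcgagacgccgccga
HERPUD1: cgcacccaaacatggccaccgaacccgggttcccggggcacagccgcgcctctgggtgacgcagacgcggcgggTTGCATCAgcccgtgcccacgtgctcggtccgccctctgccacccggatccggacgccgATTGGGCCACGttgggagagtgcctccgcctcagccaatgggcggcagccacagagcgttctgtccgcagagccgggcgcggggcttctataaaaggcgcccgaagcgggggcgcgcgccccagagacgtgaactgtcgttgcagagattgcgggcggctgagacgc

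In HSPA5 the ERSE began 66 bases before the start and in XBP1 52 bases before it, while HSP90B1 had copies beginning 194 and 89 bases before it. In HYOU1 the ERSE-II copies began 185 and 79 bases before the start.

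**Figure D1:**
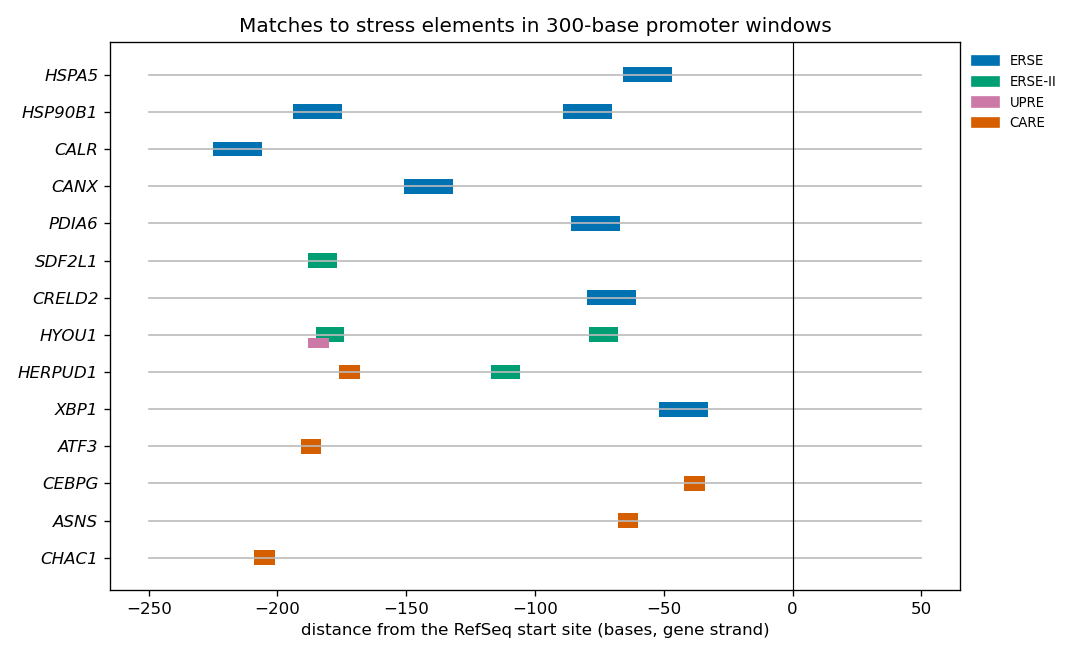
Positions of whole stress elements in the 300-base RefSeq promoter windows of the 14 listed genes that hold one, as distance in bases from the annotated start on the gene's strand; the grey line is the window and the coloured bars are matches on either strand. Of the 7 genes with an ERSE, 6 are folding factors and the other is XBP1, and for CANX, which has several windows with the same element, 1 window is drawn.

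KDM3A, the targeted gene, checked the labels: its signal was 1299.7 and 1307 with siEGFP, 1519 and 1437 with siFFluc and 693 and 712 with siKDM3A in A549, a change of -0.97 ± 0.10 (adjusted p = 8.34e-05). It was 409.8 and 373 with siEGFP, 359 and 433 with siFFluc and 197 and 223 with siKDM3A in SW780, a change of -0.86 ± 0.10 (adjusted p = 0.000274). Replicates correlated at 0.982 to 0.989 across genes, and the siFFluc arrays of SW780 were the least alike pair. The 3' to 5' signal ratio of beta-actin, a sign of RNA integrity, was 1.51 and 1.61 on the SW780 siKDM3A arrays against 1.39 to 1.44 on the controls of that line, and 1.16 and 1.19 against 1.20 to 1.30 in A549. Its part in the results below was not tested. All 5 epithelial markers were above the filter, which is on the mean signal over all 12 arrays and not on each line. Of the urothelial markers 7 of 8 were above it, with UPK1A, UPK1B and GATA3 strong in SW780 and UPK3A below the filter, and of the lung markers 3 of 6, NKX2-1, SFTPD and SCGB1A1 being below. Fibroblast and leukocyte lists had 3 of 6 and 3 of 5 genes above the filter, with summed signals of 469 to 1260 and 161 to 290. In A549 these sums were lower with siKDM3A (874 to 1013 and 188 to 204) than on the controls (1213 to 1260 and 239 to 290), as was that of the lung list (226 to 285 against 301 to 389), while the epithelial sum was higher (44790 to 45770 against 41430 to 44570). In SW780 the urothelial sum was 22740 to 23160 with siKDM3A against 23440 to 30860 on the controls, the leukocyte sum 200 to 205 against 161 to 178, and the epithelial sum 119500 to 139700 with siFFluc against 94830 to 105800 with siEGFP. The part of these shifts in the results was not tested.

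The lines differed in these genes before any knockdown was considered. Folding factors were higher in SW780 and the transcription factors of the integrated stress response were higher in A549. Between the control arrays 32 of the 38 genes differed, 21 higher and 11 lower in SW780, where 68.9% of all genes tested differed (30.1% higher and 38.8% lower in SW780), so that a difference between the lines is common. By branch, 12 of 14 folding factors were higher in SW780 and DNAJB9 was lower, 5 of 8 degradation genes were higher and 1 lower, and all 6 stress response factors were lower. The median difference, SW780 minus A549 on the log2(signal + 16) scale, was 0.98 for folding factors and -0.53 for the stress response factors, beside -0.11 for all genes. With each array scaled to its median, the median of all genes moved to 0.11 and 24 members were higher and 6 lower. DNAJB9 (0.10) and CEBPG (0.0087) then changed sign, and DERL2 did so (-0.076) with the mean of its probe sets.

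DNAJC3, a co-chaperone of HSPA5 that also inhibits PERK, had the widest gap among folding factors: its mean control signal was 5939.8 ± 1228 (SD, n = 4) in SW780 and 1267 ± 179 in A549, a ratio of 4.69. HYOU1, a large chaperone and exchange factor for HSPA5, had a ratio of 3.16, and DNAJB11, another HSPA5 co-chaperone, one of 3.08. HSPA5 itself, the main Hsp70 chaperone of the ER (BiP), was at 32535 ± 5450.4 in SW780 and 18583 ± 2187 in A549. Of the 6 ATF4 targets 2 were higher and 2 lower in SW780. PSAT1, an enzyme of serine synthesis, was at 11000 ± 674 in A549 and 754 ± 50.2 in SW780, 14.6 times higher in A549. VLDLR, a lipoprotein receptor, was 17.3 times higher in A549, with 1069.6 ± 94.3 against 61.9 ± 24.9, close to the filter of 33.6 on mean signal. PHGDH, which acts just before PSAT1 in the same pathway, was higher in SW780 by 0.68 ± 0.071 (adjusted p = 1.56e-06). Genes for which the lines did not differ past the threshold were CALR, DERL3, OS9, EIF2AK3, ASNS and CHAC1, for which the differences ran from -0.40 (DERL3) to 0.16 (EIF2AK3 and CHAC1).

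**Figure D2:**
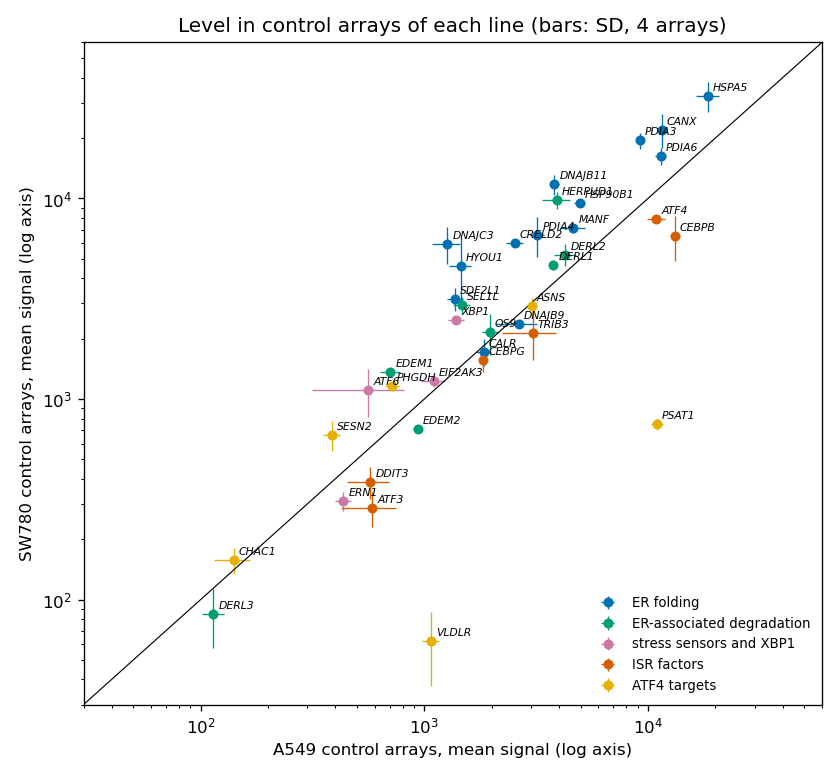
Mean signal on the 4 control arrays of A549 (x axis) and of SW780 (y axis) for each of the 38 genes, on log axes, with bars for the SD over 4 arrays and colours for the branches; the diagonal marks equal signal, and heights of different genes are not comparable because each has its own probes. Folding factors lie above the diagonal with the exception of CALR and DNAJB9, and PSAT1 and VLDLR lie far below it.

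The control siRNAs did not give the same level of these genes, and each comparison with siKDM3A shares these control arrays. TRIB3, a pseudokinase that ATF4 and CHOP induce and that acts back on them, fell with siFFluc against siEGFP in both lines. Its signal was 3792 and 3741 with siEGFP, 2285 and 2399 with siFFluc and 3452 and 3467 with siKDM3A in A549, and 2737 and 2462 with siEGFP, 1545 and 1774 with siFFluc and 2504 and 2540.1 with siKDM3A in SW780. The siFFluc arrays stood below all others in each line, and the siKDM3A arrays lay just below siEGFP in A549 and between the siEGFP arrays in SW780. The difference, siFFluc minus siEGFP, was -0.68 ± 0.081 (adjusted p = 0.000311) in A549 and -0.64 ± 0.081 (adjusted p = 0.000861) in SW780, or 62.2% and 63.8% of the siEGFP signal, and it passed under all 14 alternative settings (scaling, filter, pseudocount, probe sets, block, line alone, an array left out) in each line. In A549 5 of the 38 genes differed between the controls, 4 higher and 1 lower with siFFluc, beside 2.92% of all genes (1.43% higher and 1.49% lower). In SW780 7 differed, 4 higher and 3 lower, beside 5.57% (2.97% and 2.60%). Leaving out any 1 of the 6 A549 arrays left 2 or 3 members called there. Under median scaling the A549 split was 1 higher and 1 lower, and under quantile normalization the SW780 split was 1 higher and 2 lower.

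Besides TRIB3, A549 cells with siFFluc had more DNAJB9 (an ER co-chaperone that XBP1 induces), more MANF (a secreted ER stress protein), more HERPUD1 (a membrane part of the degradation machinery) and more ATF3 (a stress-induced repressor). DNAJB9 showed 2126 and 2209 with siEGFP, 3182 and 3057 with siFFluc and 2468 and 2539.5 with siKDM3A, a difference between controls of 0.52 ± 0.068 (adjusted p = 0.000697). ATF3 showed 451 and 443 with siEGFP, 736 and 709 with siFFluc and 591 and 548.7 with siKDM3A, a difference of 0.67 ± 0.16 (adjusted p = 0.0374). The siFFluc arrays were the highest of the line for both genes and did not overlap with the siEGFP arrays. For MANF the difference was 0.31 ± 0.067 (adjusted p = 0.0237) and for HERPUD1 0.31 ± 0.070 (adjusted p = 0.0275). DNAJB9 passed under all 14 alternatives. MANF was lost without siEGFP replicate 1 or 2 or siFFluc replicate 1 or 2 (adjusted p = 0.0837 to 0.188), and with median scaling (0.053). HERPUD1 was lost without siEGFP replicate 1 or 2, siFFluc replicate 2 or siKDM3A replicate 1 or 2 (adjusted p = 0.0565 to 0.296), and with median scaling (0.0539). ATF3 was lost without any 1 of the 6 arrays (adjusted p = 0.0634 to 0.222), and with no filter (0.0571), median scaling (0.0765), the mean of probe sets (0.508) or a replicate block (0.0652). Both siFFluc arrays were above both siEGFP arrays in 23 of the 38 genes in A549, beside 24.4% of all genes, and below them in 4, beside 21.7%.

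In SW780 the genes higher with siFFluc were HSPA5, CANX (a lectin chaperone), DNAJB11 and OS9 (a lectin that hands glycoproteins to degradation), and those lower were TRIB3, DERL2 (a part of the exit channel) and CEBPG (a partner of ATF4). HSPA5 showed 29384 and 27186 with siEGFP, 39473 and 34098 with siFFluc and 32279.5 and 28468 with siKDM3A, a difference between controls of 0.38 ± 0.085 (adjusted p = 0.0243). CANX differed by 0.42 ± 0.093 (adjusted p = 0.022) and OS9 by 0.50 ± 0.11 (adjusted p = 0.0189). Quantile normalization lost the calls of HSPA5 (adjusted p = 0.829) and CANX (0.147), and median scaling that of HSPA5 (0.0592). The mean of probe sets lost those of CANX (0.237) and OS9 (0.0746). With the SW780 arrays alone HSPA5, CANX and OS9 were all lost (adjusted p = 0.161, 0.142 and 0.0973). Each was also lost without siEGFP replicate 2, and OS9 without siEGFP replicate 1. DNAJB11, at 0.28 ± 0.074 (adjusted p = 0.0493), missed the threshold under 12 of the 14 alternatives. The lower genes were DERL2 at -0.30 ± 0.069 (adjusted p = 0.0247) and CEBPG at -0.32 ± 0.071 (adjusted p = 0.0243). DERL2 was lost without siEGFP replicate 1 or 2 (adjusted p = 0.0624 to 0.184), and with median scaling (0.0572), the mean of probe sets (0.482) or the SW780 arrays alone (0.129). CEBPG was lost without siEGFP replicate 1 or 2 or siFFluc replicate 1 (adjusted p = 0.0599 to 0.187), and with quantile normalization (0.0649), the mean of probe sets (0.126) or the SW780 arrays alone (0.135). SW780 siFFluc replicate 1 was the highest array of its line in 14 of the 38 genes, 9 of them folding factors, beside 22.1% of all genes. That array was the lowest in 7 of the 38, beside 24.7% of all genes. Its HYOU1 signal was 7234 against 3921 on the other siFFluc array, and PDIA4, a disulfide isomerase, had 8808 against 6020.3. Without that array the calls of HSPA5, CANX and OS9 between controls were lost (adjusted p = 0.120, 0.114 and 0.0897) and 2 members were called in place of 7. There were 13 without siFFluc replicate 2, 3 without siEGFP replicate 1 and 1 without siEGFP replicate 2. For no member was the difference between the controls itself shown to differ between the lines: 0 of 38 passed, beside 3 of 14061 genes (0.0213%), with 11 of 38 at an unadjusted p under 0.05 (limma). Without SW780 siFFluc replicate 2 the count was 6.

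**Figure D3:**
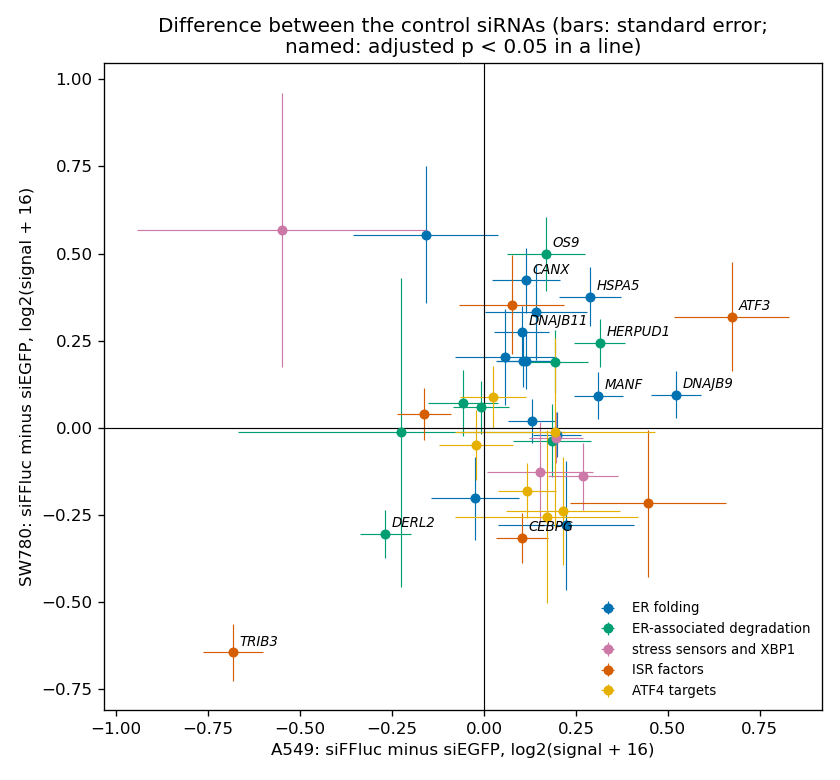
Difference siFFluc minus siEGFP on the log2(signal + 16) scale in A549 (x axis) and SW780 (y axis) for the 38 genes, with standard errors as bars and colours for the branches; genes past an adjusted p of 0.05 in a line are named. TRIB3 lies alone at the lower left, at -0.68 and -0.64.

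Under siKDM3A more of the ER genes fell than rose, in both lines, and in SW780 XBP1 and 4 other members rose. Against the average of both controls, 9 of 38 members passed in A549, 1 higher and 8 lower, and 18 of 38 in SW780, 5 higher and 13 lower. The share of all genes past the threshold was 11.7% in A549 (5.33% higher and 6.35% lower) and 11.8% in SW780 (5.68% and 6.15%). The median change of the members was -0.12 in A549 and -0.13 in SW780 beside -0.02 and 0.03 for all genes. Median scaling moved the median of all genes in A549 from -0.02 to 0.105, and with it the split to 2 higher and 3 lower; the members' median stood 0.09 below that of all genes, against 0.10 before. In SW780 it gave 1 higher and 15 lower. Leaving out A549 siKDM3A replicate 1 or 2 left 2 and 3 members in A549, and leaving out SW780 siEGFP replicate 1, siKDM3A replicate 1 or siKDM3A replicate 2 left 11, 9 and 7 in SW780.

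Which control was used changed the count. The comparisons share the siKDM3A arrays. In A549 3 members passed against siEGFP alone (0 higher and 3 lower), beside 8.04% of all genes (3.75% higher and 4.30% lower). There were 14 against siFFluc alone (2 higher and 12 lower), beside 10.0% (4.44% and 5.60%). In SW780 9 passed against siEGFP (4 higher and 5 lower), beside 6.19% (2.95% and 3.24%), and 20 against siFFluc (6 higher and 14 lower), beside 14.2% (6.96% and 7.24%). Leaving out an array of the groups compared took these counts to 0 or 1 against siEGFP and 5 to 7 against siFFluc in A549, and to 2 or 3 against siEGFP in SW780. Against siFFluc in SW780 they were 11 without siKDM3A replicate 1 or 2. Scaling each array to its median gave 2 higher and 0 lower, then 3 and 3, in A549, and 1 and 9, then 3 and 15, in SW780, while quantile normalization gave 2 higher and 8 lower against siEGFP in SW780. Genes that passed against each control alone in 1 direction were PDIA6, ERN1 and PSAT1 in A549, all lower (3 of 38), beside 4.39% of all genes (1.53% higher and 2.86% lower). In SW780 they were DNAJB9 and XBP1, higher, and HSP90B1, PDIA3, PDIA4, DERL1 and PHGDH, lower (7 of 38), beside 3.74% of all genes (1.48% and 2.26%). With an array of the line left out, these counts were 0 or 1 in A549 and 2 to 10 in SW780; in A549 any of the 6 arrays, and in SW780 either siEGFP or either siKDM3A array (3, 3, 3 and 2), took it down by more than 1.5 times. Against siEGFP alone XBP1 and HSP90B1 in SW780 passed with any 1 array left out, and the other 8 of these calls were each lost without at least 1 array. Both siKDM3A arrays lay beyond all 4 controls of the line in 1 member above and 15 below in A549 (all genes: 17.0% and 19.9%), and in 6 above and 13 below in SW780 (15.3% and 13.3%).

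**Figure D4:**
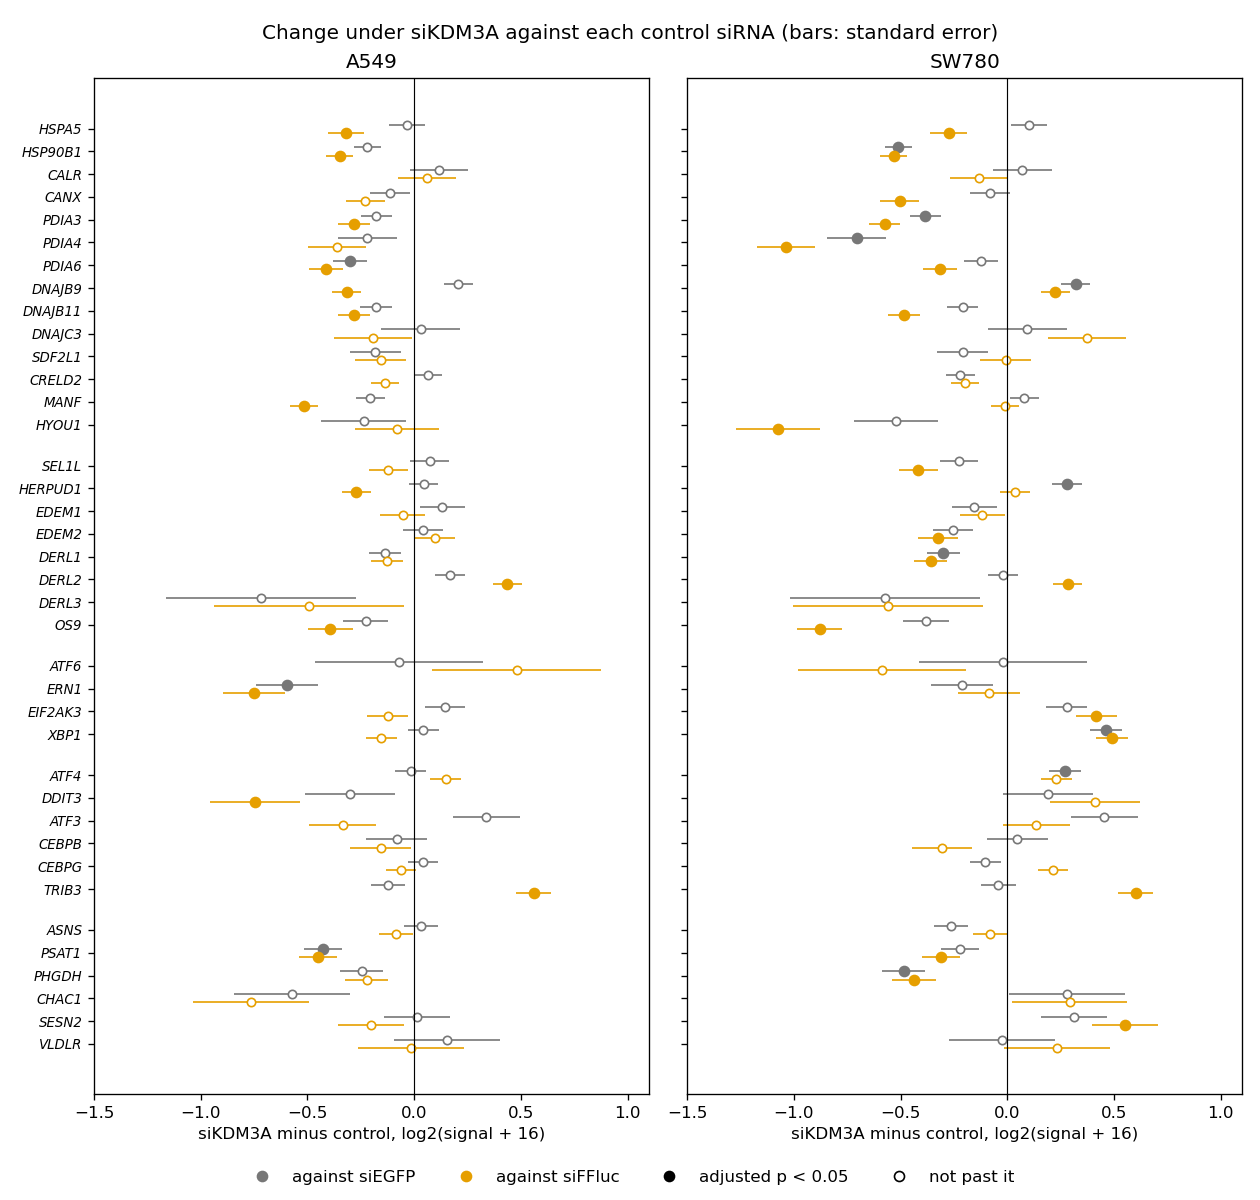
Change under siKDM3A against siEGFP (grey) and against siFFluc (orange) on the log2(signal + 16) scale for the 38 genes, ordered by branch, in A549 (left) and SW780 (right), with standard errors as bars; filled points passed an adjusted p of 0.05. Filled grey points in A549 are PDIA6, ERN1 and PSAT1, and in SW780 HSP90B1, PDIA3 and PDIA4 are filled on the lower side against both controls.

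Among the folding factors, 5 of 14 fell in A549 and 0 rose, and in SW780 7 fell and 1 rose. Of all genes 6.35% fell and 5.33% rose in A549, and 6.15% fell and 5.68% rose in SW780. HSPA5, the gene most used as a marker of the unfolded protein response, did not pass in either line: its A549 signal was 16484 and 16966 with siEGFP, 20899.7 and 19984 with siFFluc and 16131 and 16585 with siKDM3A. Its change was -0.18 ± 0.073 (adjusted p = 0.146) in A549 and -0.09 ± 0.073 (adjusted p = 0.505) in SW780. In both lines its siKDM3A arrays overlapped siEGFP and lay below siFFluc, and the change passed against siFFluc alone, at -0.32 ± 0.085 (adjusted p = 0.0309) in A549 and -0.28 ± 0.085 (adjusted p = 0.0472) in SW780. The A549 call was lost without siFFluc replicate 1 or 2 or siKDM3A replicate 1 or 2 (adjusted p = 0.105 to 0.188), and with no filter (0.0588) or median scaling (0.288). The SW780 call was lost without siEGFP replicate 1 or 2, siFFluc replicate 1 or siKDM3A replicate 2 (adjusted p = 0.0512 to 0.281), and with pseudocount 1 (0.0522), no filter (0.0823), quantile normalization (0.275) or the SW780 arrays alone (0.187). HSP90B1 (GRP94), the Hsp90 chaperone of the ER, did fall. Its signal was 4769.8 and 4691 with siEGFP, 5207 and 5144 with siFFluc and 3977 and 4140.4 with siKDM3A in A549 and 9824 and 9133 with siEGFP, 9746 and 9476 with siFFluc and 6687 and 6592 with siKDM3A in SW780. All siKDM3A arrays lay below all controls of their line, at 81.9% of the control mean in A549 and 69.6% in SW780. The change was -0.29 ± 0.054 (adjusted p = 0.00504) in A549 and -0.52 ± 0.054 (adjusted p = 9.53e-05) in SW780, where it also passed against siEGFP alone (-0.51 ± 0.063, adjusted p = 0.000489) and siFFluc alone (-0.53 ± 0.063, adjusted p = 0.00021). The name of its probe set marks probes that can also match other sequences, as do the names for CALR, PDIA6, OS9 and DERL3. The other probe set of HSP90B1 has a mean signal of 478. With the mean of both sets the change against the average of the controls was -0.37 in A549 and -0.50 in SW780 and missed the threshold (adjusted p = 0.253 and 0.113), as did that against siEGFP in SW780 (0.569). The call against siFFluc in SW780 passed under all 14 alternatives. The A549 call against the average was lost without siKDM3A replicate 1 (adjusted p = 0.0906), and with median scaling (0.153) or the mean of probe sets (0.253).

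Disulfide isomerases form and reshuffle disulfide bonds. PDIA4, which had the widest fall of the 38 genes in SW780, showed 5398 and 6201 with siEGFP, 8808 and 6020.3 with siFFluc and 3576 and 3509.9 with siKDM3A there, so that siKDM3A arrays were at 53.6% of the control mean and below every control array. Its change was -0.87 ± 0.12 (adjusted p = 0.000681), -0.71 ± 0.14 (adjusted p = 0.0102) against siEGFP and -1.04 ± 0.14 (adjusted p = 0.000478) against siFFluc. In A549 the same gene had 2926 and 3161 with siEGFP, 3209.9 and 3510.3 with siFFluc and 2483 and 2743 with siKDM3A, a change of -0.29 ± 0.12 (adjusted p = 0.142), which did not pass. PDIA3, the isomerase that works with CANX and CALR on glycoproteins, had 18904 and 17452 with siEGFP, 21622 and 19906 with siFFluc and 14734 and 13152 with siKDM3A in SW780, a change of -0.48 ± 0.064 (adjusted p = 0.000544). It had 8817 and 8920.3 with siEGFP, 9527 and 9550.1 with siFFluc and 7739.8 and 7939 with siKDM3A in A549, a change of -0.23 ± 0.064 (adjusted p = 0.0346). Its siKDM3A arrays were the lowest in both lines. PDIA6, an isomerase that also binds IRE1, had 11164 and 10729 with siEGFP, 12366 and 11354 with siFFluc and 8959 and 8828 with siKDM3A in A549. That is a change of -0.36 ± 0.069 (adjusted p = 0.00564) with both siKDM3A arrays below all controls, whereas the change in SW780 was -0.22 ± 0.069 (adjusted p = 0.0595). In A549 it came to -0.30 ± 0.080 (adjusted p = 0.0384) against siEGFP and -0.41 ± 0.080 (adjusted p = 0.00595) against siFFluc. The call against siEGFP was lost with no filter (adjusted p = 0.061), median scaling (0.296) or the mean of probe sets (0.102), and other PDIA6 sets are nearly as bright. The SW780 calls of PDIA3 and PDIA4 against the average of the controls and against siFFluc alone passed under all 14 alternatives. Against siEGFP alone both were lost with the SW780 arrays alone (adjusted p = 0.0921 for PDIA3 and 0.0545 for PDIA4). There PDIA3 was also lost without siEGFP replicate 1 or siKDM3A replicate 2, and PDIA4 without siEGFP replicate 2 or siKDM3A replicate 1 or 2. The A549 call of PDIA3 was lost without any 1 of the 6 arrays (adjusted p = 0.0669 to 0.241), and with no filter (0.0567) or median scaling (0.443). That of PDIA6 was lost without siKDM3A replicate 1 or 2 (adjusted p = 0.059 to 0.0803), and with median scaling (0.0907).

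**Figure D5:**
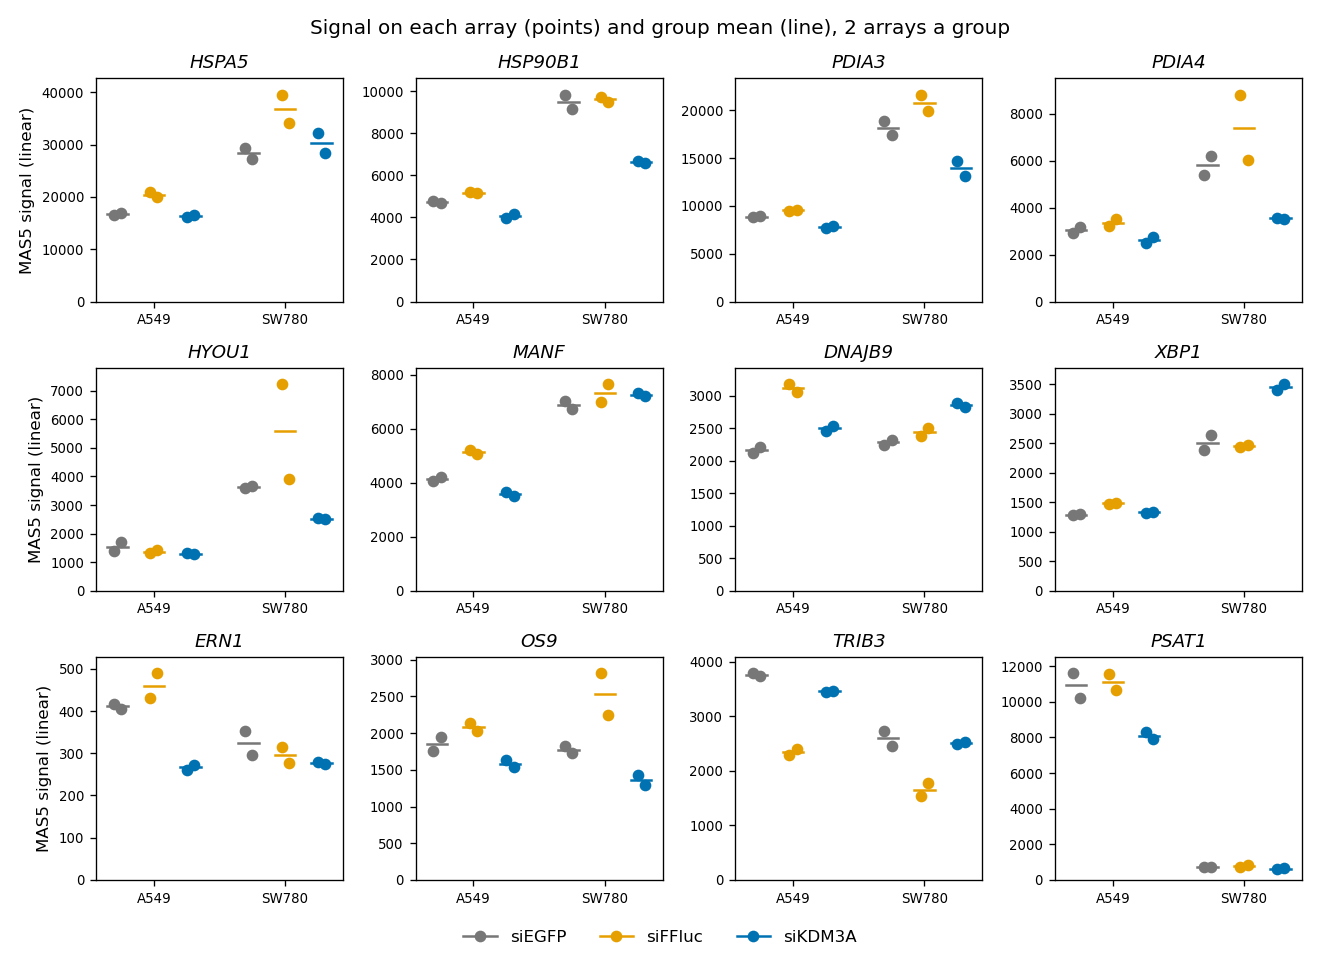
MAS5 signal on a linear axis from 0 for 12 of the genes, with 1 point an array, a line at the mean of the 2 arrays, and groups ordered siEGFP, siFFluc and siKDM3A in A549 and then SW780. HSP90B1, PDIA3 and PDIA4 are lowest with siKDM3A in SW780, XBP1 is highest with siKDM3A there, and TRIB3 is lowest with siFFluc in both lines.

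MANF fell in A549 and did not pass in SW780: its signal was 4054 and 4225 with siEGFP, 5199.9 and 5074 with siFFluc and 3659 and 3519 with siKDM3A in A549 and 7021 and 6714 with siEGFP, 7001 and 7651 with siFFluc and 7320.3 and 7202 with siKDM3A in SW780. The siKDM3A arrays of A549 were below all 4 controls, at 77.4% of their mean, while those of SW780 lay within the range of theirs. The change was -0.36 ± 0.058 (adjusted p = 0.0015) in A549, which passed under all 14 alternatives, and 0.03 ± 0.058 (adjusted p = 0.766) in SW780. Against siEGFP alone the A549 change was -0.20 ± 0.067 (adjusted p = 0.0842), which missed the threshold. HYOU1 had 3585 and 3661 with siEGFP, 7234 and 3921 with siFFluc and 2531 and 2507 with siKDM3A in SW780, a change of -0.80 ± 0.17 (adjusted p = 0.00975) with both siKDM3A arrays below all controls. It did not pass against siEGFP alone (-0.52 ± 0.20, adjusted p = 0.147), it was lost without siKDM3A replicate 1 or 2 (adjusted p = 0.0752 to 0.0789), and the A549 change was -0.16 ± 0.17 (adjusted p = 0.633). DNAJB11 fell in both lines, with 3613 and 3759.5 with siEGFP, 3934 and 3980.4 with siFFluc and 3445 and 3069.8 with siKDM3A in A549 (-0.23 ± 0.064, adjusted p = 0.0358) and 10286 and 11006 with siEGFP, 13349 and 12436 with siFFluc and 9444 and 8964 with siKDM3A in SW780 (-0.35 ± 0.064, adjusted p = 0.00423). Neither fall passed against siEGFP alone (-0.18 in A549 and -0.21 in SW780). Its A549 call was lost without any 1 of the 6 arrays (adjusted p = 0.0547 to 0.399), and with no filter (0.0508) or median scaling (0.379), the last with a change of -0.10. Its SW780 call was lost without siKDM3A replicate 2 (adjusted p = 0.0603).

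DNAJB9 (ERdj4), whose gene is a known XBP1 target, was the folding factor that rose. In SW780 its signal was 2241 and 2325 with siEGFP, 2378 and 2504 with siFFluc and 2888 and 2825 with siKDM3A, both siKDM3A arrays being above all controls, and the change was 0.27 ± 0.059 (adjusted p = 0.0103). In A549 the siKDM3A arrays, at 2468 and 2539.5, lay between the controls: the change was 0.21 ± 0.068 (adjusted p = 0.0876) against siEGFP and -0.32 ± 0.068 (adjusted p = 0.0116) against siFFluc. The SW780 rise was lost without siKDM3A replicate 1 or 2 (adjusted p = 0.0609 to 0.0924), and with median scaling (0.0695), the mean of probe sets (0.0605) or the SW780 arrays alone (0.0527). CANX in SW780 had 19971 and 17641 with siEGFP, 27336 and 23179 with siFFluc and 19007 and 16547 with siKDM3A, a change of -0.29 ± 0.081 (adjusted p = 0.0328) that passed against siFFluc alone (-0.50 ± 0.093, adjusted p = 0.00342) and not against siEGFP alone (-0.08 ± 0.093, adjusted p = 0.683). CRELD2, an ER protein induced by stress, had 6043 and 6009 with siEGFP, 6054 and 5838 with siFFluc and 5129 and 5221 with siKDM3A, a change of -0.21 ± 0.057 (adjusted p = 0.0312), at 86.4% of the controls. The CANX call was lost without siEGFP replicate 1, siFFluc replicate 1 or siKDM3A replicate 2 (adjusted p = 0.0568 to 0.299), and with no filter (0.0542) or the SW780 arrays alone (0.138). That of CRELD2 was lost without siEGFP replicate 1 or 2 or siKDM3A replicate 1 or 2 (adjusted p = 0.071 to 0.179), and with the SW780 arrays alone (0.101). CALR, DNAJC3 and SDF2L1 did not pass in any comparison with siKDM3A. Their changes were between -0.17 and 0.09 in A549 and between -0.11 and 0.23 in SW780.

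In ER-associated degradation 1 of 8 genes rose and 1 fell in A549, and in SW780 4 fell and 0 rose. The shares of all genes were 5.33% higher and 6.35% lower in A549, and 5.68% and 6.15% in SW780. OS9 had 1762 and 1946 with siEGFP, 2138 and 2028 with siFFluc and 1631 and 1533 with siKDM3A in A549 and 1820.1 and 1728 with siEGFP, 2815 and 2240.3 with siFFluc and 1429 and 1291 with siKDM3A in SW780, with siKDM3A arrays below all controls of each line. Its change was -0.31 ± 0.091 (adjusted p = 0.0459) and -0.63 ± 0.091 (adjusted p = 0.000934). The SW780 call passed under all 14 alternatives, though against siEGFP alone it came to -0.38 ± 0.11 (adjusted p = 0.0522). The A549 call was lost without any 1 of the 6 arrays (adjusted p = 0.0524 to 0.302), and with no filter (0.0607), quantile normalization (0.0564) or median scaling (0.264). DERL1, a part of the exit channel, had 4500 and 4598 with siEGFP, 4459 and 5042 with siFFluc and 3794 and 3596 with siKDM3A in SW780, all siKDM3A values being below the controls, with a change of -0.33 ± 0.066 (adjusted p = 0.00667) that was lost without siKDM3A replicate 2 (adjusted p = 0.0824). SEL1L, the adaptor of the ligase SYVN1, had 2741 and 2745 with siEGFP, 3331 and 2944 with siFFluc and 2169.7 and 2529.7 with siKDM3A, a change of -0.32 ± 0.079 (adjusted p = 0.0194). EDEM2, a mannosidase that marks glycoproteins for degradation, had 706 and 675 with siEGFP, 721 and 729 with siFFluc and 582 and 569 with siKDM3A, a change of -0.29 ± 0.082 (adjusted p = 0.0374). For both, siKDM3A arrays were below all controls, and neither passed against siEGFP alone. The SEL1L call was lost without siEGFP replicate 1 or 2 or siKDM3A replicate 1 (adjusted p = 0.0516 to 0.237), and with the mean of probe sets (0.155) or the SW780 arrays alone (0.0659). That of EDEM2 was lost without siEGFP replicate 1 or 2 or siKDM3A replicate 1 or 2 (adjusted p = 0.0656 to 0.181), and with quantile normalization (0.0617), a replicate block (0.0555) or the SW780 arrays alone (0.118).

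DERL2, a relative of DERL1, rose in A549 against the average of the controls. It passed against siFFluc alone (0.44) but not against siEGFP alone (0.17). Its A549 signal was 4859.8 and 4487 with siEGFP, 3949 and 3800.1 with siFFluc and 5321 and 5181 with siKDM3A, the siKDM3A arrays being the highest, with a change of 0.30 ± 0.059 (adjusted p = 0.00604) that was lost without siKDM3A replicate 1 or 2 (adjusted p = 0.0574 to 0.0863), and with the mean of probe sets (0.0955). In SW780 it had 5658 and 5948 with siEGFP, 4834 and 4564 with siFFluc and 5850.1 and 5591 with siKDM3A, so that siKDM3A lay with siEGFP and above siFFluc, and the change was 0.13 ± 0.059 (adjusted p = 0.186). HERPUD1 had 8889.6 and 9115 with siEGFP, 10518 and 10807 with siFFluc and 11173 and 10703 with siKDM3A in SW780. The siKDM3A arrays there were level with siFFluc and above siEGFP, and the change was 0.28 ± 0.070 (adjusted p = 0.0331) against siEGFP and 0.04 ± 0.070 (adjusted p = 0.788) against siFFluc. In A549 it had 3477 and 3498 with siEGFP, 4078 and 4623 with siFFluc and 3622 and 3572 with siKDM3A, a change of -0.27 ± 0.070 (adjusted p = 0.0277) against siFFluc and 0.04 ± 0.070 (adjusted p = 0.785) against siEGFP. The SW780 call against siEGFP was lost with quantile normalization (adjusted p = 0.110), median scaling (0.1355) or the SW780 arrays alone (0.1185). It was also lost without any 1 siEGFP or siKDM3A array. The A549 call against siFFluc was lost with median scaling (adjusted p = 0.285), and without siFFluc replicate 2 or siKDM3A replicate 1 or 2. EDEM1 and DERL3 passed in no comparison within a line. DERL3 is dim, with control signals of 97.2 to 124 in A549 and 53.7 to 122 in SW780, and its changes of -0.60 ± 0.38 and -0.57 ± 0.38 have wide errors.

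Of the 4 sensing genes 1 fell in A549, beside 6.35% of all genes, and 2 rose in SW780, beside 5.68%. ERN1, which encodes IRE1, fell in A549: its signal was 417 and 405 with siEGFP, 430.1 and 489 with siFFluc and 261 and 271 with siKDM3A, so that siKDM3A arrays were at 61.2% of the control mean and below every control. The change was -0.67 ± 0.13 (adjusted p = 0.00417), -0.60 ± 0.14 (adjusted p = 0.0238) against siEGFP and -0.75 ± 0.14 (adjusted p = 0.0058) against siFFluc. In SW780 it had 353 and 297 with siEGFP, 315 and 276 with siFFluc and 279 and 276 with siKDM3A, with siKDM3A arrays within the siFFluc range or just below it and a change of -0.15 ± 0.13 (adjusted p = 0.508). The A549 call was lost without siKDM3A replicate 1 (adjusted p = 0.0552), and with the mean of probe sets (0.279). That against siEGFP alone was lost without siEGFP replicate 1 or 2 or siKDM3A replicate 1 or 2 (adjusted p = 0.102 to 0.135), and with quantile normalization (0.0526), median scaling (0.063) or the mean of probe sets (0.797). XBP1, the message that IRE1 splices, rose in SW780, with 2382 and 2636 with siEGFP, 2435 and 2479 with siFFluc and 3411 and 3505 with siKDM3A. Both siKDM3A arrays were above the 4 controls, at 139% of their mean, and the change was 0.48 ± 0.064 (adjusted p = 0.000562), 0.46 ± 0.073 (adjusted p = 0.00272) against siEGFP and 0.49 ± 0.073 (adjusted p = 0.000957) against siFFluc. It passed under all 14 alternatives in each of these comparisons. In A549 XBP1 had 1283 and 1303 with siEGFP, 1475 and 1494 with siFFluc and 1323 and 1342 with siKDM3A, the siKDM3A arrays lying between the controls, and a change of -0.06 ± 0.064 (adjusted p = 0.655). EIF2AK3, which encodes PERK, had 1271 and 1303 with siEGFP, 1137 and 1199 with siFFluc and 1544 and 1588 with siKDM3A in SW780, both siKDM3A arrays being above the controls, with a change of 0.35 ± 0.083 (adjusted p = 0.0168). It was lost without siEGFP replicate 1 or siKDM3A replicate 1 or 2 (adjusted p = 0.0511 to 0.124), and with median scaling (0.0708). Against siEGFP alone it came to 0.28 ± 0.10 (adjusted p = 0.111). ATF6 passed in no comparison within a line, and its signal was 224 and 772 on the A549 siFFluc arrays.

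Of the 6 factors of the integrated stress response 0 passed in A549 against the average of the controls, with 2 at an unadjusted p under 0.05, and 2 rose in SW780. Of all genes 11.7% passed in A549, so that 0 of 6 is near that share, and 5.68% rose in SW780. ATF4, the factor at the head of the response, had 7779.8 and 7893 with siEGFP, 7994 and 8119 with siFFluc and 9686 and 9229 with siKDM3A in SW780 and 12329 and 10763 with siEGFP, 10612 and 9959 with siFFluc and 11133 and 11643 with siKDM3A in A549. In SW780 both siKDM3A arrays were above all controls, at 119% of their mean, a rise of 0.25 ± 0.064 (adjusted p = 0.0233), while in A549 they lay within the controls and the change was 0.07 ± 0.064 (adjusted p = 0.591). The SW780 change passed against siEGFP alone (0.27 ± 0.074, adjusted p = 0.0487) and missed against siFFluc alone (0.23 ± 0.074, adjusted p = 0.0554). The call against siEGFP was lost under 10 of the 14 alternatives. Among them were pseudocount 1 (adjusted p = 0.0505), no filter (0.0746), quantile normalization (0.0952) and median scaling (0.231). It was also lost without any 1 siEGFP or siKDM3A array. The call against the average of the controls was lost with median scaling (adjusted p = 0.178) or the SW780 arrays alone (0.0649). That call was also lost without siEGFP replicate 1 or siKDM3A replicate 1 or 2. TRIB3 was called higher in SW780 (0.28 ± 0.070, adjusted p = 0.0219), and there the contrast with siFFluc was 0.60 ± 0.081 (adjusted p = 0.000531) and that with siEGFP -0.04 ± 0.081 (adjusted p = 0.834). In A549 the same contrasts were 0.56 ± 0.081 (adjusted p = 0.000802) and -0.12 ± 0.081 (adjusted p = 0.431). The TRIB3 call in SW780 was lost without siEGFP replicate 2 or siKDM3A replicate 1 or 2 (adjusted p = 0.0713 to 0.136), and with median scaling (0.111), the mean of probe sets (0.563) or the SW780 arrays alone (0.0897), and the gene's other probe set changed by -0.11 there.

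DDIT3, which encodes the pro-apoptotic factor CHOP, had 402 and 574 with siEGFP, 647 and 674 with siFFluc and 451 and 332 with siKDM3A in A549, with siKDM3A replicate 1 inside the range of the siEGFP arrays. Its change was -0.74 ± 0.21 (adjusted p = 0.0428) against siFFluc and -0.30 ± 0.21 (adjusted p = 0.463) against siEGFP. The call against siFFluc was lost without siFFluc replicate 1 or 2 or siKDM3A replicate 1 or 2 (adjusted p = 0.0559 to 0.306), and with pseudocount 1 (0.0523), no filter (0.0649), quantile normalization (0.0553), median scaling (0.0575) or the mean of probe sets (0.0535). In SW780 it had 406 and 419 with siEGFP, 283 and 439 with siFFluc and 449 and 499 with siKDM3A, siKDM3A arrays above all controls, with a change of 0.30 ± 0.18 (adjusted p = 0.332) that did not pass. The siKDM3A arrays lay above the siEGFP and below the siFFluc arrays for ATF3 in A549, and the change against the average of the controls was 0.00 ± 0.14 (adjusted p = 0.996). CEBPB, a factor that pairs with ATF4, and CEBPG did not pass in any comparison with siKDM3A, with changes of -0.13 to 0.06 against the average of the controls. CEBPG in SW780 had 1700.4 and 1792 with siEGFP, 1381 and 1417 with siFFluc and 1608 and 1642 with siKDM3A, the siFFluc arrays being the lowest.

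Of the 6 ATF4 targets PSAT1 fell in both lines and PHGDH in SW780, and the other 4 did not pass against the average of the controls. The shares of all genes that fell were 6.35% in A549 and 6.15% in SW780. PSAT1 had 11597 and 10232 with siEGFP, 11533 and 10638 with siFFluc and 8299 and 7901 with siKDM3A in A549, siKDM3A arrays at 73.6% of the controls and below all of them, and 730.4 and 729.8 with siEGFP, 728 and 829.6 with siFFluc and 595 and 654 with siKDM3A in SW780. The change was -0.44 ± 0.077 (adjusted p = 0.00294) in A549 and -0.27 ± 0.077 (adjusted p = 0.0432) in SW780, and in A549 it passed against siEGFP (-0.43 ± 0.089, adjusted p = 0.0111) and siFFluc (-0.45 ± 0.089, adjusted p = 0.00694). The A549 call was lost without siKDM3A replicate 2 (adjusted p = 0.0629). That in SW780 was lost without siEGFP replicate 1 or 2, siFFluc replicate 2 or siKDM3A replicate 1 or 2 (adjusted p = 0.0538 to 0.302), and with no filter (0.0556), the mean of probe sets (0.0556) or the SW780 arrays alone (0.177). PHGDH had 1202 and 1160.4 with siEGFP, 1109 and 1174 with siFFluc and 833 and 844 with siKDM3A in SW780, a fall to 72.2% of the controls with a change of -0.46 ± 0.087 (adjusted p = 0.0049), which passed under all 14 alternatives. Its A549 arrays showed 687 and 761 with siEGFP, 664 and 761 with siFFluc and 586 and 629 with siKDM3A, the siKDM3A pair being the lowest, with a change of -0.23 ± 0.087 (adjusted p = 0.107). ASNS, asparagine synthetase and a classic ATF4 target, changed by -0.03 ± 0.069 (adjusted p = 0.861) and -0.17 ± 0.069 (adjusted p = 0.134). SESN2, a stress-induced inhibitor of growth signalling, had 743 and 685 with siEGFP, 732 and 495 with siFFluc and 854 and 930.3 with siKDM3A in SW780, both siKDM3A arrays above all controls. It passed against siFFluc alone (0.55 ± 0.15, adjusted p = 0.0319) but not against the average of the controls (0.43 ± 0.13, adjusted p = 0.0545). The former call was lost without siFFluc replicate 2 or siKDM3A replicate 1 or 2 (adjusted p = 0.0797 to 0.163), and with median scaling (0.0902), the mean of probe sets (0.0735) or the SW780 arrays alone (0.0851). CHAC1, which degrades glutathione, is dim, and its changes were -0.67 ± 0.23 in A549 and 0.29 ± 0.23 in SW780. VLDLR passed in no comparison within a line.

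The difference between the lines was tested itself. The change under siKDM3A was higher in SW780 than in A549 for XBP1, by 0.53 ± 0.090 (adjusted p = 0.0125), and for MANF, by 0.39 ± 0.082 (adjusted p = 0.0308). These were 2 of 38 members, 2 higher and 0 lower, beside 2.75% of all genes (1.78% higher and 0.974% lower), and 16 of 38 had an unadjusted p under 0.05. XBP1 was lost without A549 siKDM3A replicate 1 or 2 or SW780 siKDM3A replicate 2 (adjusted p = 0.0705 to 0.0741). MANF was lost under median scaling (adjusted p = 0.210) and without any 1 of the arrays save the 2 SW780 siFFluc arrays. Median scaling, which moved the median of all genes from 0.04 to -0.17 here, gave 1 member higher and 13 lower, and leaving out SW780 siFFluc replicate 1 or 2 gave 5 and 7 members, while 0 were left without A549 siKDM3A replicate 1 or 2 or SW780 siKDM3A replicate 2, and 1 without any of the other arrays. ERN1 fell in A549 and did not pass in SW780, but its difference of 0.53 ± 0.18 (adjusted p = 0.138) did not pass, nor did those of PDIA4 (-0.58 ± 0.17, adjusted p = 0.088), DNAJB9 (0.33 ± 0.084, adjusted p = 0.0582) and DDIT3 (0.82 ± 0.26, adjusted p = 0.110).

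Set beside their promoters, genes with an ERSE had changes of different sign in SW780. HSP90B1, CANX and CRELD2 fell and XBP1 rose, while HSPA5 (-0.09), CALR (-0.03) and PDIA6 (-0.22) did not pass. Of the genes with an ERSE-II, HYOU1 fell, and HERPUD1 and SDF2L1 had changes of 0.16 and -0.11, which did not pass. Of the genes with a CARE none passed against the average of the controls in either line: ASNS, ATF3, CEBPG, CHAC1 and HERPUD1 ranged from -0.67 to 0.00 in A549 and from -0.17 to 0.29 in SW780. Of all genes 11.7% passed in A549 and 11.8% in SW780, so for so few genes a count of none is near the share of all genes.

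Several of these genes have more than 1 probe set above the filter (21 of 38). For the change against the average of the controls, none had sets opposed in sign that were each at an unadjusted p under 0.05. Between the controls in SW780, CANX did have such sets. The set used differed by 0.42 (limma, unadjusted p = 0.000526) and a dimmer set (mean signal 820.5) by -0.33 (0.0154). The probe sets of HSPA5 differed in size: the set used (mean signal 24830) changed by -0.18 in A549 and -0.09 in SW780, and a dimmer set (mean signal 687) by -0.66 (adjusted p = 0.00204) and -0.51 (0.0115), adjusted over the 27098 kept probe sets of 1 gene. PDIA4's other set fell in A549 as well as in SW780, by -0.65 (adjusted p = 0.000689) and -0.73 (0.000400). Dimmer PDIA3 sets (mean signals 941.5 and 520.1) fell in A549 by -0.54 (adjusted p = 0.00404) and -0.50 (0.00864), where the set used changed by -0.23. The other OS9 set (mean signal 1191) fell there by -0.60 (adjusted p = 0.0115), where the set used changed by -0.31. Another CANX set changed by -0.63 in A549 (adjusted p = 0.00210), where the set used changed by -0.17. For DERL1 the set used changed by -0.13 in A549 and -0.33 in SW780, and another, nearly as bright, by -0.34 (adjusted p = 0.00447) and 0.01 (0.967). For PDIA6 the set used (mean signal 13030) changed by -0.36 in A549 and -0.22 in SW780. A set of mean signal 12890 changed by -0.315 (adjusted p = 0.0132) and -0.237 (0.0524), and one of 12330 by -0.157 (0.158) and -0.2 (0.0755). Another PDIA6 set (mean signal 10790) changed by -0.14 (adjusted p = 0.117) and -0.33 (0.00234), so the line in which PDIA6 passed depended on the set.

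Other genes of the same pathways were counted against the average of the controls, where 11.7% of all genes passed in A549 and 11.8% in SW780. Of 51 further ER genes tested, 0 rose and 6 fell in A549, and 1 rose and 11 fell in SW780. Of 48 further genes of the integrated stress response, 4 rose and 3 fell in A549, and 3 rose and 8 fell in SW780. The glycoprotein folding sensor UGGT1 fell in A549 (-0.61 ± 0.094, adjusted p = 0.00115). GANAB, the glucosidase that trims glycans before CANX binds them, fell in SW780 (-1.01 ± 0.15, adjusted p = 0.000915), with siKDM3A signals of 2085 and 2129 against 3410.2 to 6107 on the controls. DNAJC10, an ER reductase, fell in both lines, with changes of -0.35 ± 0.066 (adjusted p = 0.00426) and -0.44 ± 0.066 (adjusted p = 0.00114). The A549 call was lost without siKDM3A replicate 2 (adjusted p = 0.0803), and with the mean of probe sets (0.369), and that in SW780 with the mean of probe sets (adjusted p = 0.129). In A549 GDF15, a stress cytokine, fell (-0.63 ± 0.084, adjusted p = 0.000406), a comparison in which siFFluc stood above siEGFP by 0.84 ± 0.10 (adjusted p = 0.000241). In SW780 the amino acid transporter SLC7A5 fell (-0.87 ± 0.16, adjusted p = 0.00354), and so did the tryptophan and isoleucine tRNA ligases WARS1 and IARS1, with changes of -0.38 ± 0.065 (adjusted p = 0.00238) and -0.32 ± 0.063 (adjusted p = 0.00606), the last lost without siKDM3A replicate 2 (adjusted p = 0.0881).

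The other kinases of eIF2 are the haem-regulated EIF2AK1, the double-stranded RNA sensor EIF2AK2 (PKR) and the amino acid sensor EIF2AK4 (GCN2). EIF2AK2 had 1643 and 1745 with siEGFP, 3023 and 2773 with siFFluc and 3231 and 2657 with siKDM3A in SW780, so that the siEGFP arrays stood below all others. It differed between the controls by 0.77 ± 0.089 (adjusted p = 0.000461) there and was called higher with siKDM3A against the average of the controls (0.40 ± 0.077, adjusted p = 0.0055). That change was 0.79 ± 0.089 (adjusted p = 0.000287) against siEGFP and 0.02 ± 0.089 (adjusted p = 0.928) against siFFluc, and in A549 the change against the average was 0.23 ± 0.077 (adjusted p = 0.0776). The SW780 call was lost without siKDM3A replicate 1 (adjusted p = 0.097). EIF2AK1 changed by -0.14 ± 0.071 (adjusted p = 0.242) in A549 and -0.16 ± 0.071 (adjusted p = 0.169) in SW780, and EIF2AK4 by 0.09 ± 0.072 (adjusted p = 0.514) and 0.22 ± 0.072 (adjusted p = 0.0684). SLC7A11, the cystine transporter that ATF4 induces, differed between the controls, siFFluc standing above siEGFP by 1.30 ± 0.085 (adjusted p = 2.65e-06) in A549 and 1.20 ± 0.085 (adjusted p = 7.59e-06) in SW780. FAF2, a degradation factor, was lower with siFFluc, with differences of -0.70 ± 0.10 (adjusted p = 0.001) and -0.91 ± 0.10 (adjusted p = 0.00019). These calls of SLC7A11 and FAF2 passed under all 14 alternatives.

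As a description, the genes whose signal followed HSPA5 most closely over the 12 arrays, after the mean of each line was taken out, were AGPAT1 (r = 0.948), LIMA1 (0.942), S100P (0.935), SLC26A2 (0.928) and UST (0.922). For ATF4 they were RBM3 (0.939), TM2D3 (0.938), CLPX (0.883), CAV1 (0.877) and TLE2 (0.875). None of these genes is on the list, and all points share their arrays and normalization. In all, 28 of the 38 members passed in some comparison within a line and 10 in none.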

How the data were processed

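The authors deposited 1 table of MAS5 signal intensities, linear and per probe set, for the 12 arrays; MAS5 is named in the submitters' processing notes with a version not given in the sources used here. In the values, each array has a mean, trimmed by 2% at each end, of 500.1, and medians run from 50.3 to 59.1. Of 54675 probe sets 62 controls were removed, and 41091 of the rest have 1 gene symbol in a 2016 platform annotation, 1801 several and 11721 none. Signals were taken as log2(signal + 16), probe sets under the 40th percentile of mean signal (33.6) were left out, and the brightest probe set of each gene was fitted with limma 3.58.1 (R 4.3.3): 6 group means, a trended prior, and Benjamini-Hochberg adjustment over 14061 genes, with a threshold of 0.05. Every adjusted p in the text is from such a fit, and each value after ± is its standard error unless marked SD. The number of arrays limits the precision. Alternatives were pseudocounts of 1 and 64, no filter, quantile normalization, median scaling, the mean of a gene's probe sets, a replicate block, each line alone, and each array left out. Those for the counts called against each control alone, for KDM3A and for genes outside the list were chosen after seeing the data. The members, lists and named genes were chosen with earlier results of these data known: per-array values are given for members past the threshold within a line, up to 4 genes of smallest p are named from each further list, and the 3 other kinases are always named. Promoter windows are RefSeq's. Figures were drawn with matplotlib 3.10.9 (Python 3.11.15).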

Additional observations from a re-analysis of the deposited data

Results flagged for a closer look

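The change under siKDM3A differed between the lines for 2 of the 38 genes in a test of the difference itself. For XBP1 it was higher in SW780 than in A549 by 0.5318 on the log2(signal + 16) scale (limma, adjusted p = 0.0125), with both SW780 siKDM3A arrays above all 4 controls and both A549 siKDM3A arrays between the controls. For MANF it was higher by 0.3949 (adjusted p = 0.0308), with both A549 siKDM3A arrays below all controls and both SW780 arrays within their range. No group has 4 arrays or more, so no single array was tested as an outlier, and the account of SW780 siFFluc replicate 1 above is a description.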

How the results depend on the processing

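Of 85 calls of members within a line, 21 passed under all 14 alternatives and 0 changed sign; of 1190 pairs of a call and an alternative, 317 no longer passed, 196 of them with an array left out. Between the lines 26 of 34 calls passed under all 19 alternatives and 3 genes changed sign once: DNAJB9 (0.1029) and CEBPG (0.0087) under median scaling, and DERL2 (-0.076) with the mean of probe sets. The cause of each change was not tested, beyond the fewer arrays of some fits. Median scaling gave 5 members for siKDM3A in A549, 6 against siFFluc in A549, 2 and 4 between controls in A549 and SW780, 14 for the difference in response between lines and 1 called against each control in A549. Quantile normalization gave 6 against siEGFP in A549, 3 between controls in SW780 and 6 against each control in A549. The mean of probe sets gave 2 between controls in SW780. The arrays of a line alone gave, in A549, 6 against siEGFP and 6 against each control, and in SW780 10 for siKDM3A, 3 against siEGFP, 13 against siFFluc, 1 between controls and 3 against each control. With an array left out, counts ranged from 2 to 7 for siKDM3A in A549 and 7 to 19 in SW780, 0 to 2 against siEGFP in A549 and 2 to 13 in SW780, 5 to 14 against siFFluc in A549 and 11 to 22 in SW780, 2 to 3 between controls in A549 and 1 to 13 in SW780, 31 to 34 between lines, 0 to 7 for the difference in response, 0 to 6 for the difference between controls by line, 0 to 1 against each control in A549 and 2 to 10 in SW780. Same-numbered arrays did not deviate together (r from -0.03 to 0.019), so no shared shift was seen. This cannot tell whether they were handled as pairs, which the labels do not say. A replicate block gave 11 and 18 members for siKDM3A in A549 and SW780, 4 and 10 against siEGFP, 15 and 19 against siFFluc, 5 and 7 between controls, 2 and 0 for the differences by line, 31 between lines, and 4 and 8 against each control. With 2 arrays a group, small changes and dim genes such as DERL3 and CHAC1 are measured poorly.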
